A study of Rattus norvegicus with 33 samples.

Results

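Hox genes were described here in the caudal mammary gland of the rat, over 33 microarrays from 6 stages of the gland. Members were all genes named Hoxa, Hoxb, Hoxc or Hoxd followed by a number in the platform annotation, taken from probe sets that carry 1 gene symbol. This gave 31 genes of 18166 in all, with 1 probe set each: 8 in the Hoxa cluster, 10 in Hoxb, 7 in Hoxc and 6 in Hoxd. Hox genes without such a probe set were not analysed here.

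The animals were female Sprague-Dawley rats that served as vehicle controls of a chemical exposure study, and every group had been given olive oil by gavage. Their left and right caudal glands (pair 5) were taken before puberty at postnatal day 21 (10 arrays), around puberty at day 42 (5 arrays) and at puberty at day 63 (5 arrays). The others were taken at the end of lactation, on lactating day 28 and postnatal day 146 (3 arrays), and at day 181 from parous and from nulliparous adults (5 arrays each). Each stage was collected on 1 day, at random in the estrous cycle, so stage and collection day cannot be told apart. Parous and nulliparous adults had the same age, while lactating and pubertal rats did not. The labels speak of 5 animals a stage, so if the 10 arrays of day 21 came from fewer than 10 animals, p-values that use them are too small.

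The labels divide the arrays into 3 batches, and each batch holds only some of the stages. Batch 1 holds 6 arrays of day 21 and 3 each of day 42, day 63, nulliparous and parous glands. Batch 2 holds 4 arrays of day 21, 2 each of days 42 and 63, and all 3 lactation arrays. Batch 3 holds 2 nulliparous and 2 parous arrays, all 4 extracted with the Zymo kit, which the labels say was used for some of the fattier adult glands, whereas all other RNA was extracted with the Promega kit. Batch 3 and that kit therefore cannot be told apart, and the lactation and parous groups share no batch. Values are log2 intensities after RMA, a method that corrects background, normalizes between arrays and summarises the probes of a set, and the number of arrays limits their precision.

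Hox genes code for homeodomain transcription factors that lie in 4 clusters, one on each of 4 chromosomes. Genes near the start of a cluster, with low numbers, are known to act towards the head of the embryo, and genes with high numbers towards the tail and the ends of the limbs. Genes with the same number in different clusters are paralogs, often with overlapping roles. Hox proteins bind DNA together with cofactors of the TALE class (Pbx, Meis and Pknox). Their expression is set in the embryo by retinoic acid and held by the Polycomb and Trithorax chromatin complexes, and it persists in adult connective tissue as a record of position. In the mouse mammary gland, Hoxc8 is known for its part in placing the mammary buds, and Hoxa9, Hoxb9 and Hoxd9 for their joint part in the growth of the gland in pregnancy and lactation.

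Sequences of 3 promoters are given first, chosen among the genes with a promoter entry. Hoxa5, Hoxb6 and Hoxc8, which were called over the stages, had no such entry. Hoxa4 and Hoxa7 were both lower at day 42 than at day 21, and Hoxd10 was the only Hoxd gene with a mean level above the median and the only Hox gene called lower in parous than in lactating glands. Each sequence runs from 250 bases before to 50 bases after the gene's start in RefSeq on the rat assembly GRCr8, 5′ to 3′ on the gene's strand. Capitals mark CCAAT, which on the other strand reads ATTGG, and CACGTG, an E-box that reads the same on both strands.

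Hoxa4, chr4:82622253-82622552, minus strand: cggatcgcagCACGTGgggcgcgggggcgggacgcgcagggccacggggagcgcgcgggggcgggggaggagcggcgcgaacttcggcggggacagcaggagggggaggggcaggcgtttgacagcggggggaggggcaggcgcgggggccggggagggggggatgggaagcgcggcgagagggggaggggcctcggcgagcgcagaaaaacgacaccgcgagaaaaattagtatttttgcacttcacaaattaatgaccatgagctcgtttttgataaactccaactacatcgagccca

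Hoxa7, chr4:82648192-82648491, minus strand: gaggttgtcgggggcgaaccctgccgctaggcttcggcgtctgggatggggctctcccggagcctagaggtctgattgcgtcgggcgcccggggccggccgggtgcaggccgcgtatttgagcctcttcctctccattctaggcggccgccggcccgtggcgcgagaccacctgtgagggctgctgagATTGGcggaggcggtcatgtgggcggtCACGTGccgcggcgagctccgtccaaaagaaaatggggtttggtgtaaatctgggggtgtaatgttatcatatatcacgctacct

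Hoxd10, chr3:80001697-80001996, plus strand: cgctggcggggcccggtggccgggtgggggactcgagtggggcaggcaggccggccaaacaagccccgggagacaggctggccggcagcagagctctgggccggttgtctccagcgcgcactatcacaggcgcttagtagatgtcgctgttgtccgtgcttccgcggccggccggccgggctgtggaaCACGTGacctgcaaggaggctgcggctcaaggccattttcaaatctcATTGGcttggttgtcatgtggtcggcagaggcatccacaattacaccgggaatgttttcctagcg

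A promoter entry was found for 15 of the 31 genes, 1 of them with 2 starts, which gave 16 windows. Of Hoxb only Hoxb1 and of Hoxc only Hoxc4 had an entry, so the shares below describe mainly Hoxa and Hoxd genes. CACGTG was present in 6 of the 16 windows (Hoxa4, Hoxa7, Hoxa9, Hoxd1, Hoxd3 and Hoxd10) and in 6.42% of 33469 promoters of the same length. CCAAT, on either strand, was present in 11 of 16 windows against 37.5% of all promoters. Of the other letters searched on both strands, TATAAA was in 4 of 16 windows (14.2% of all), TAATTA in 0 (5.36%), TGATTNAT in 1 (3.18%) and TTTATNG in 2 (11.3%). In the Hoxa4 sequence the E-box lies 240 bases before the start, and in Hoxa7 and Hoxd10 it lies 35 and 62 bases before it. The windows of the Hox genes held a median of 21.5 CG dinucleotides, against 7 over all promoters. These matches describe letters and not bound sites, and no measure of binding was used here.

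Hox transcripts were mostly in the lower part of the range of the array. The mean over the 33 arrays was above 7.645, the median of all values of single-symbol probe sets, for 8 of the 31 genes (25.8%), against 51.2% of all 18166 genes. Probe sets differ in their response, so each level is read only as above or below this median, and a low value does not show that a gene is silent. The 8 genes were Hoxa5, Hoxa6, Hoxa7, Hoxb2, Hoxb3, Hoxc8, Hoxc9 and Hoxd10, with means from 7.91 for Hoxb2 to 8.56 for Hoxa6. None of the 31 was above the 75th percentile of all values, 9.07, in its mean. Just inside the median stood Hoxb2 at 7.91 and Hoxd10 at 7.93, and just outside it Hoxb6 at 7.48 and Hoxc4 at 7.40.

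The genes above the median lay between positions 2 and 10 of the clusters. In Hoxa they were 3 of 8 genes, the run Hoxa5, Hoxa6 and Hoxa7. In Hoxb they were 2 of 10, the neighbours Hoxb2 and Hoxb3, and in Hoxc 2 of 7, the neighbours Hoxc8 and Hoxc9. In Hoxd only Hoxd10 of 6 was above. By position, 2 of 10 genes of positions 1 to 4, 3 of 7 of positions 5 to 7, 3 of 8 of positions 8 to 10 and 0 of 6 of positions 11 to 13 were above. The 4 lowest means belonged to Hoxd13 (4.52, range 4.21 to 4.90), Hoxd1 (4.88, range 4.64 to 5.39), Hoxc12 (5.07, range 4.82 to 5.29) and Hoxb13 (5.11, range 4.82 to 5.28). Among these are genes of the tail end of 3 clusters, while Hoxd1 is the head-end gene of its cluster.

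**Figure D1:**
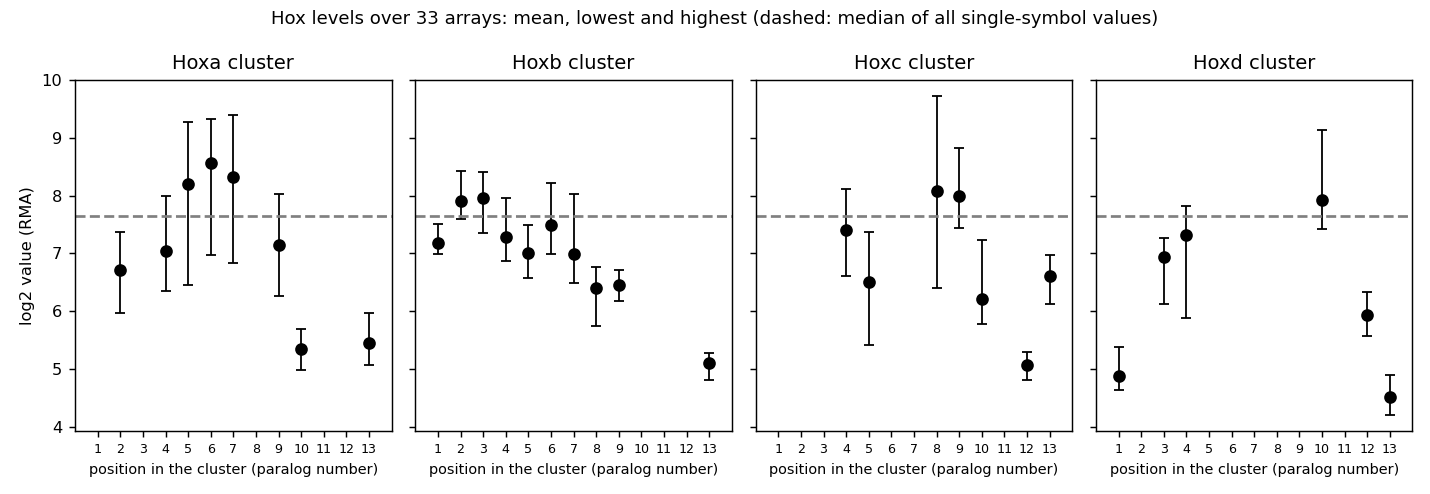
Mean log2 level of the 31 Hox genes over 33 arrays against their number in the cluster, with 1 panel per cluster, bars from the lowest to the highest array and a dashed line at 7.645, the median of all single-symbol values. The 8 means above the line lie at positions 2, 3, 5, 6, 7, 8, 9 and 10, and the 6 genes of positions 11 to 13 lie below it in every array.

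No Hox gene was above the median in all 33 arrays, 16 were above it in none, and 15 in some. Hoxa6 was above in 32 arrays, the exception being lactation array 2 at 6.97. Hoxa7 and Hoxd10 were above in 31 arrays each, Hoxa5 and Hoxb2 in 29, Hoxb3 and Hoxc9 in 28 and Hoxc8 in 26. By stage means, 4 genes were above at every stage (Hoxa6, Hoxb2, Hoxc9 and Hoxd10), and Hoxa5, Hoxa7, Hoxb3 and Hoxc8 were above at all stages but lactation.

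Tests were run on genes above the median in at least 3 arrays, which held for 14 of the 31 Hox genes and 10986 genes in all. They were the 8 genes above and 6 with a lower mean: Hoxa4, Hoxb4, Hoxb6, Hoxb7, Hoxc4 and Hoxd4. Some of these 6 passed through a single kind of array. Hoxb4 passed through 3 and Hoxb7 through 4 arrays of batch 3 alone, Hoxa4 through day 21 arrays 4 and 5 and parous array 5, and Hoxc4 through day 21 arrays 2, 4 and 5 and day 42 array 2. The filter thus favours Hoxa4 and Hoxc4 being higher at day 21, and Hoxb4 and Hoxb7 being higher in batch 3. The other 17 Hox genes were tested in a fit of all 18166 genes without this filter.

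Stage was fitted with batch in 1 limma model over the 33 arrays, and p-values were adjusted by Benjamini-Hochberg over all genes tested. Levels differed over the 6 stages (F test, adjusted p under 0.05) for 7 of the 14 Hox genes. The background was 65.9% of all genes tested, so the Hox genes were not called more often than others. The genes called were Hoxa5 (adjusted p = 4.91e-05), Hoxa7 (6.36e-05), Hoxc4 (0.00127), Hoxb6 (0.00144), Hoxa4 (0.00157), Hoxc8 (0.0042) and Hoxa6 (0.00591). All 4 Hoxa genes tested were among them, with 2 of 3 Hoxc genes, 1 of 5 Hoxb genes and 0 of 2 Hoxd genes. Those not called had adjusted p from 0.0774 for Hoxd4 to 0.433 for Hoxb7. In batch 1 alone, which lacks the lactation arrays, 3 of the 14 were called, against 36.2% of all genes: Hoxa4, Hoxa5 and Hoxa7. In batch 2 alone, which holds days 21, 42 and 63 and lactation, 5 were called, against 39.8% of all genes: Hoxa4, Hoxa5, Hoxa7, Hoxb6 and Hoxc4. Without batch 3 the same 7 genes were called, against 66.1% of all genes.

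Of the 17 genes outside the filter, 3 were called over the stages in the unfiltered fit, Hoxa2 (adjusted p = 0.000803), Hoxc5 (0.00379) and Hoxa9 (0.0179), against 46.3% of all 18166 genes. Hoxa2, the head-end member known for its role in the second branchial arch, ran from 6.63 to 7.33 (median 7.05) at day 21. At day 63 it was 6.37, 6.20, 6.31, 6.71 and 6.31. Its mean was 7.01 ± 0.23 (SD, n = 10) at day 21, 6.75 ± 0.31 (n = 5) at day 42, 6.38 ± 0.19 (n = 5) at day 63, 6.27 ± 0.27 (n = 3) in lactation, 6.83 ± 0.31 (n = 5) in nulliparous and 6.54 ± 0.22 (n = 5) in parous glands. Hoxa2 was thus highest at day 21 and low at day 63 and in lactation, and the ranges of days 21 and 63 overlap. The nulliparous arrays had a median of 6.70, and array 5 of batch 3 stood well above it at 7.37. In batch 1 the means were 6.99 at day 21, 6.67 in nulliparous glands and 6.29 at day 63.

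Hoxc5, which lies next to Hoxc4, had means of 6.85 ± 0.29 (SD, n = 10) at day 21 and 5.96 ± 0.30 (n = 3) in lactation. Its 4 batch 3 arrays, at 5.94 and 5.57 in nulliparous and 5.42 and 5.74 in parous glands, were below all 6 batch 1 arrays of these groups, which ran from 6.09 to 6.70. Hoxa9, one of the genes known from mammary growth in the mouse, had means of 7.35 ± 0.33 (n = 10) at day 21, 7.37 ± 0.14 (n = 5) at day 42, 6.93 ± 0.20 (n = 5) at day 63 and 6.74 ± 0.49 (n = 3) in lactation. Its adult means were 7.06 ± 0.48 in nulliparous and 7.11 ± 0.26 in parous glands (n = 5 each). Only day 21 array 4, at 8.04, was above the median for Hoxa9. Of its known partners, Hoxb9 kept between 6.17 and 6.72 in all arrays and was not called over the stages (adjusted p = 0.115).

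The comparison of day 42 with day 21 asks what changed as the gland entered puberty. Hoxa4 and Hoxa7, 2 middle members of the Hoxa cluster, fell, and Hoxb2, a head-end member known for hindbrain patterning, rose. These were 3 of 14 Hox genes, against a background of 32.3% of all genes tested, 17.1% higher and 15.2% lower. No Hox gene had groups without overlap, against 5.01% of all genes. The median difference was -0.04 over the 14 and 0 over all genes.

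For Hoxa7 the arrays of day 21 ran from 7.84 to 9.39 with a median of 8.85. Those of day 42 were 8.35, 8.45, 8.15, 8.07 and 7.79. All day 42 arrays lay below that median, though the ranges overlap. The means were 8.75 ± 0.45 (SD, n = 10) and 8.16 ± 0.26 (n = 5), and the log2 difference was -0.59 ± 0.16 (SE, adjusted p = 0.00559). Within batch 1 it was -0.67 ± 0.16 (adjusted p = 0.00856), and within batch 2 it was -0.47 ± 0.30 (0.43).

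Hoxa4 was between 6.97 and 7.76 (median 7.29) at day 21 and at 6.50, 6.88, 6.76, 7.01 and 6.97 at day 42. Of the day 42 arrays only array 4, at 7.01, exceeded the lowest of day 21, so the groups overlap by that array. The log2 difference was -0.50 ± 0.14 (adjusted p = 0.00714). It was -0.51 ± 0.13 within batch 1 (adjusted p = 0.0122) and -0.50 ± 0.26 within batch 2 (0.309). Hoxa4 passed the filter through day 21 and parous arrays and through no day 42 array, so the filter favours this direction.

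Hoxb2 was at 7.98, 8.25, 8.05, 8.02 and 7.95 at day 42 and between 7.59 and 8.18 at day 21. The log2 difference was 0.24 ± 0.09 (adjusted p = 0.0458). This call was lost with no filter on low values (adjusted p = 0.0635) and when any 1 of many arrays was left out, with adjusted p up to 0.163 without day 42 array 2. The difference kept its sign in all these fits.

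Cell type markers moved in the same comparison. The 9 adipocyte markers were all called lower at day 42, and the mean over the list was between 10.81 and 11.61 in the day 21 arrays and between 10.38 and 10.77 in those of day 42. The 10 luminal epithelial markers were all called higher, with list means of 6.66 to 9.63 at day 21 and 9.40 to 10.13 at day 42. All 7 T cell and 4 B cell markers and 3 of 4 endothelial markers were called lower, and 3 of 4 basal markers higher. The endothelial means were 10.23 to 10.86 at day 21 and 10.04 to 10.31 at day 42. With the adipocyte mean as a covariate the Hoxa7 difference turned to 0.03 (adjusted p = 0.934) and that of Hoxa4 was -0.32 (0.323). With the luminal mean they were -0.48 (0.406) and -0.31 (0.61). The adipocyte means of these days do not overlap, so the fit with that covariate separates stage from it poorly. In bulk tissue, fewer cells of a type and less RNA per cell cannot be told apart, and the part of cell composition in these differences was not tested further.

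**Figure D2:**
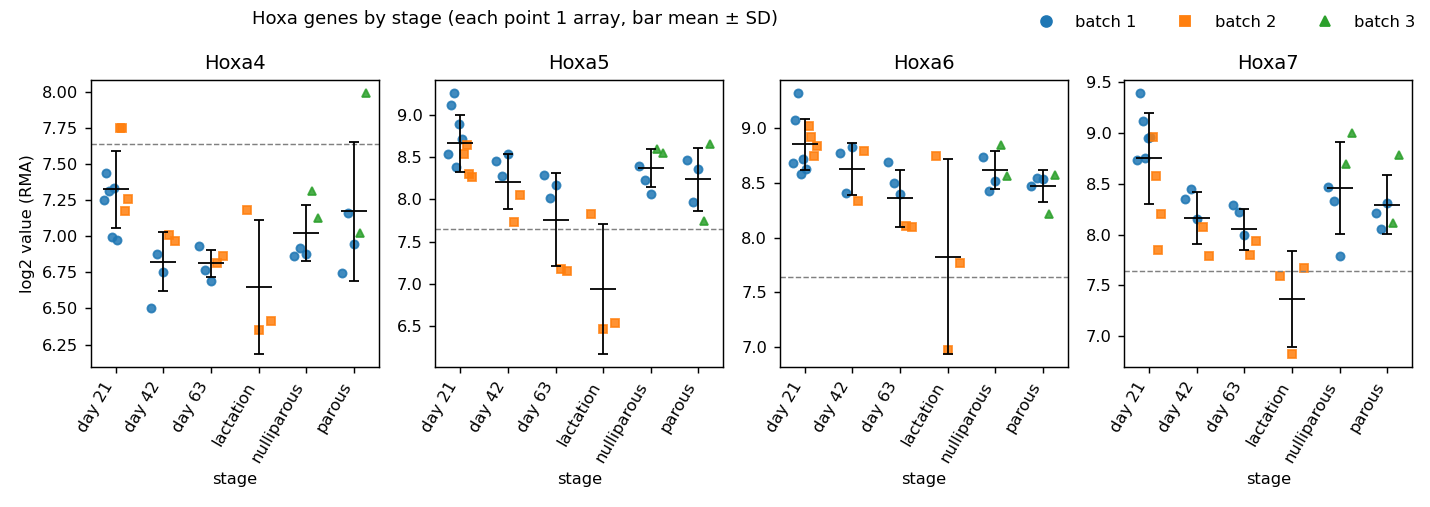
Log2 values of Hoxa4, Hoxa5, Hoxa6 and Hoxa7 in every array by stage, with colour and shape for the batch, bars for the stage mean ± SD and a dashed line at the median of all single-symbol values, 7.645. All 4 genes have their highest stage mean at day 21 and their lowest in lactation, where the 3 arrays of Hoxa6 spread from 6.97 to 8.75.

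Between days 42 and 63 none of the 14 Hox genes was called by limma, and 1 had an unadjusted p under 0.05, against a background of 1.22% called. Groups without overlap were found for 0 of 14, against 2.26% of all genes. The gene with an unadjusted p under 0.05 was Hoxa5, a regulator of lung and axial development, with a log2 difference of -0.45 ± 0.21 (SE, adjusted p = 0.306). Its batches stood apart at day 63: the batch 1 arrays were at 8.29, 8.01 and 8.17 and the batch 2 arrays at 7.18 and 7.14. Within batch 1 the difference was -0.27 ± 0.20 and within batch 2 it was -0.73 ± 0.37, with adjusted p of 0.663 and 0.821.

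Nulliparous adults at day 181 were compared with pubertal rats at day 63, for the passage to maturity without pregnancy. None of the 14 Hox genes was called by limma and 2 had an unadjusted p under 0.05, against 4.27% of all genes called. Hoxc8 had the largest difference, 0.63 ± 0.22 (SE, adjusted p = 0.101). Its arrays were at 8.21, 7.84, 7.70, 7.45 and 7.74 at day 63 and at 8.26, 8.55, 8.54, 9.45 and 9.73 in nulliparous glands. These groups did not overlap, as for 7.0% of all genes, but the last 2 values are those of batch 3. In batch 1 alone the difference was 0.53 ± 0.19 (adjusted p = 0.146), and with no batch term it was 1.12 ± 0.27 (0.022). Without lactation array 2, which enters this comparison only through the shared spread, 1 of the 14 Hox genes was called.

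Over the whole span from day 21 to nulliparous adults at day 181, Hoxa5 and Hoxa7 fell and no Hox gene of the 14 rose, against a background of 29.2% called, 14.8% higher and 14.4% lower. The log2 difference of Hoxa7 was -0.66 ± 0.18 (SE, adjusted p = 0.00728) and that of Hoxa5 -0.58 ± 0.21 (0.0366). Hoxa5 was between 8.26 and 9.27 (median 8.59) at day 21 and at 8.40, 8.24, 8.07, 8.60 and 8.56 in nulliparous glands, and Hoxa7 was at 8.47, 8.33, 7.79, 8.69 and 9.001 there. The groups overlap for both genes before batch is considered, and for none of the 14 were they apart, against 7.81% of all genes. Within batch 1 the differences were -0.59 ± 0.17 for Hoxa5 (adjusted p = 0.0198) and -0.79 ± 0.16 for Hoxa7 (0.00175).

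In batch 1 alone 4 Hox genes were called over this span, against 24.6% of all genes. Beside Hoxa5 and Hoxa7 these were Hoxc8, higher by 0.47 ± 0.16 (adjusted p = 0.0461), and Hoxd4, lower at -0.45 ± 0.14 (0.0261). With no batch term the differences of Hoxa5 and Hoxa7 were -0.29 each, with adjusted p of 0.289 and 0.249. In that fit Hoxc8 (0.96 ± 0.24, adjusted p = 0.00308) and Hoxb4 (0.37 ± 0.13, 0.0278) were called higher and Hoxd4 (-0.56 ± 0.19, 0.0263) lower, against 35.1% of all genes. Hoxb4 passed the filter only through adult arrays of batch 3, so the filter favours its being higher in adults. Within batch 1 the Hoxb4 difference was 0.14 ± 0.13 (adjusted p = 0.474). The call of Hoxa7 was lost without nulliparous array 3 (-0.48, adjusted p = 0.0593). That of Hoxa5 was lost without any 1 of day 21 arrays 2 and 3, nulliparous arrays 1, 2 and 3 or parous array 5, with adjusted p from 0.0593 to 0.114. The count of Hox genes called was 3 in place of 2 without any 1 of day 21 arrays 5 and 8, lactation arrays 1 and 2 or parous array 4. Adipocyte markers were lower here as well, 7 of 9 called, and with their mean as a covariate the differences turned to 0.24 for Hoxa5 (adjusted p = 0.58) and 0.03 for Hoxa7 (0.945). The adipocyte means of these groups do not overlap either, so that fit too separates stage from the covariate poorly. Outside the filter Hoxb5 was called lower, at -0.34 ± 0.11 (0.0344), against 18.9% of all genes.

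For 15 of the 31 Hox genes the lowest of the 6 stage means was that of lactation, against 30.7% of all 18166 genes, and for 10 the highest was that of day 21, against 18%. Among the 14 genes past the filter these were 10 and 7, against 30.2% and 21.7% of the 10986 genes tested. These stage means take no account of batch, and the lactation arrays all lie in a single batch that holds no adult arrays of day 181. The part of batch in these counts was not tested. Against pubertal glands at day 63, Hoxc4 and Hoxb6 fell and no Hox gene of the 14 rose. The background was 40.7% of all genes called, 23.8% higher and 16.9% lower. The median difference was -0.30 over the 14 Hox genes and 0.06 over all genes.

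Hoxc4, the first gene of the Hoxc cluster at its head end, was at 7.003, 6.62 and 7.20 in lactation and at 7.41, 7.46, 7.32, 7.37 and 7.42 at day 63. All lactation arrays lay below all pubertal arrays. The means were 6.94 ± 0.29 (SD, n = 3) and 7.40 ± 0.05 (n = 5), and the log2 difference was -0.52 ± 0.15 (SE, adjusted p = 0.00536). Without lactation array 2 it was -0.36 (adjusted p = 0.0708).

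Hoxb6 was at 7.16, 6.98 and 7.11 in lactation and at 7.29, 7.31, 7.27, 7.31 and 7.57 at day 63, again without overlap. The means were 7.08 ± 0.09 (SD, n = 3) and 7.35 ± 0.12 (n = 5), and the log2 difference was -0.41 ± 0.16 (adjusted p = 0.0408). The call was lost without any 1 of the 3 lactation arrays, without any 1 of pubertal arrays 1, 2, 3 and 5 and without day 42 array 4, with adjusted p from 0.0531 to 0.133. Values did not overlap for 4 of the 14 Hox genes, Hoxa7, Hoxb3, Hoxb6 and Hoxc4, against 35.9% of all genes.

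Lactation arrays are all of batch 2, where only 2 pubertal arrays stand beside them. Within batch 2 the differences were -0.46 ± 0.22 for Hoxc4 (adjusted p = 0.164) and -0.36 ± 0.21 for Hoxb6 (0.255), and none of the 14 was called, with 0 at an unadjusted p under 0.05, against 21.7% of all genes. Over the whole series, 5 Hox genes were called without lactation array 1, 3 without pubertal array 4, and 1 without any 1 of pubertal arrays 1, 2, 3 and 5 or day 42 array 4.

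The Hoxa genes had low but scattered values in lactation. Hoxa5 was at 7.83, 6.46 and 6.53 in the 3 arrays, Hoxa6 at 8.75, 6.97 and 7.76, and Hoxa7 at 7.60, 6.83 and 7.68. Array 2 was the lowest of the 3 for each of them, and for Hoxc8 (7.61, 6.41 and 7.52) and Hoxc9 (8.36, 7.44 and 8.82) as well. Hoxa5 and Hoxa6 had log2 differences of -0.47 ± 0.26 and -0.47 ± 0.24 against day 63, with adjusted p of 0.146 and 0.13. Hoxc8, the gene known from the mammary line, differed by -0.52 ± 0.24 (0.0785).

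Hoxc9 and Hoxd10, of higher number, did not share the low lactation means. Neither did Hoxb4 and Hoxd4, of low number, with differences of -0.02 ± 0.14 and -0.01 ± 0.20 against day 63. Hoxd10, known for its part in hindlimb patterning, was at 9.13, 7.43 and 8.44 in lactation and between 7.78 and 8.03 at day 63, with a difference of 0.43 ± 0.22 (adjusted p = 0.113). Hoxc9 differed by 0.41 ± 0.24 (0.166). The groups overlap for Hoxc9 and for Hoxd10, lactation array 2 being the lowest of the 3. Outside the filter 3 of 17 genes were called against 29.0% of all genes: Hoxb8 at -0.43 ± 0.14 (adjusted p = 0.0185) and Hoxc5 at -0.54 ± 0.20 (0.0482) were lower, and Hoxc10 at 0.54 ± 0.19 (0.0324) was higher. Hoxc10 was at 6.40, 5.99 and 7.24 in lactation and between 5.77 and 6.17 at day 63, so its call rests on values that overlap.

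**Figure D3:**
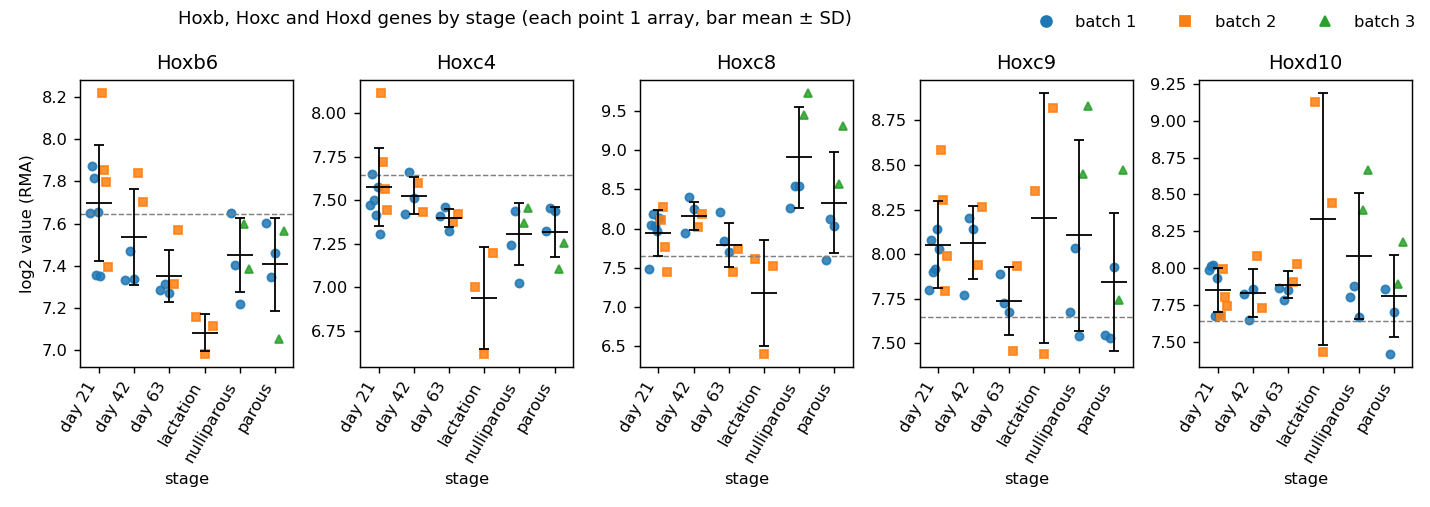
Log2 values of Hoxb6, Hoxc4, Hoxc8, Hoxc9 and Hoxd10 in every array by stage, drawn with colour and shape for the batch, bars for the stage mean ± SD and a dashed line at 7.645. Hoxb6 and Hoxc4 have their lowest stage mean in lactation, Hoxc8 is highest in the batch 3 arrays of the adults, and Hoxd10 spreads from 7.43 to 9.13 in lactation.

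Cell type markers differed between these groups. The 10 fibroblast markers were all called lower in lactation, with list means of 10.31, 9.83 and 9.92 against 11.67 to 11.97 at day 63. The adipocyte means were 9.57, 9.27 and 9.45 against 10.14 to 10.51, with 7 of 9 genes called lower, and the luminal means were 10.44, 11.24 and 10.80 against 9.63 to 10.22, with 7 of 10 called higher. Lactation array 2, the lowest for the Hox genes just named, had the highest luminal mean and the lowest fibroblast and adipocyte means. Muscle markers ran from 7.19 in array 2 over 8.64 in array 1 to 9.81 in array 3. With the fibroblast mean as a covariate the differences were -0.05 for Hoxc4 (adjusted p = 0.937) and -0.44 for Hoxb6 (0.439). The fibroblast means of these groups do not overlap, so that fit separates stage from the covariate poorly. Whether makeup accounts for the Hox differences was not tested further.

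Parous glands at day 181 were compared with lactation, for the return after weaning. Hoxb6 and Hoxc4 rose and Hoxd10 fell, 3 of 14 genes against a background of 32.9%, 12.1% higher and 20.7% lower. Hoxb6 was at 7.61, 7.35, 7.46, 7.05 and 7.57 in parous glands, with a log2 difference of 0.58 ± 0.18 (SE, adjusted p = 0.0159). Hoxc4 was at 7.32, 7.46, 7.44, 7.11 and 7.25, with a difference of 0.49 ± 0.17 (0.0247). For both genes 1 parous array, array 4 of batch 3, lay within the range of the lactation arrays.

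Hoxd10 was at 7.86, 7.42, 7.70, 7.89 and 8.18 in parous glands, against lactation values that ran from 7.43 to 9.13, with a difference of -0.72 ± 0.25 (adjusted p = 0.0264). It rested on lactation array 1: without that array the difference was -0.33 (0.245), without lactation array 2 it was -1.18 (4.13e-05), and without batch 3 it was -0.65 (0.0625). Without lactation array 2 the difference of Hoxc4 was 0.33 (0.153) and that of Hoxb6 0.53 (0.0525). Since the groups share no batch, this comparison depends on batch terms estimated from other stages, and lactation arrays also serve in the comparison with day 63, so both sets of differences move together by construction. With no batch term none of these 3 genes was called (adjusted p = 0.157 for Hoxb6, 0.0603 for Hoxc4 and 0.0958 for Hoxd10). Called in their place, against 27.3% of all genes, were Hoxa5 at 1.30 ± 0.30 (0.00178), Hoxc8 at 1.15 ± 0.32 (0.00811), Hoxa7 at 0.93 ± 0.27 (0.0117) and Hoxa6 at 0.64 ± 0.23 (0.039), all higher in parous glands. Of the markers, 9 of 10 fibroblast genes (median difference 0.95) and 6 of 9 adipocyte genes were called higher and 8 of 10 luminal genes lower in parous glands, and their part was not tested. Values did not overlap for Hoxa7 alone, against 27.8% of all genes, and its difference was not called. The number of Hox genes called was 6 without lactation array 1, 5 without parous array 4, 2 without lactation array 2 or 3 or parous array 3, and 1 without parous array 2.

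Between parous and nulliparous adults of the same age limma called 0 of the 14 Hox genes, with 1 at an unadjusted p under 0.05, against a background of 0.0182% called. The groups overlap for all 14, and were apart for 0.173% of all genes. The largest difference was that of Hoxc8, -0.58 ± 0.19 (SE, adjusted p = 0.563, 95% interval -0.98 to -0.18). Hoxc8 was at 7.61, 8.12, 8.04, 8.56 and 9.30 in parous glands, the last 2 being those of batch 3. In each batch the parous mean was lower, 7.92 ± 0.28 against 8.45 ± 0.17 (n = 3 each) in batch 1 and 8.93 ± 0.52 against 9.59 ± 0.20 (n = 2 each) in batch 3. Within batch 1 the difference was -0.53 ± 0.19 (0.9998).

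**Figure D4:**
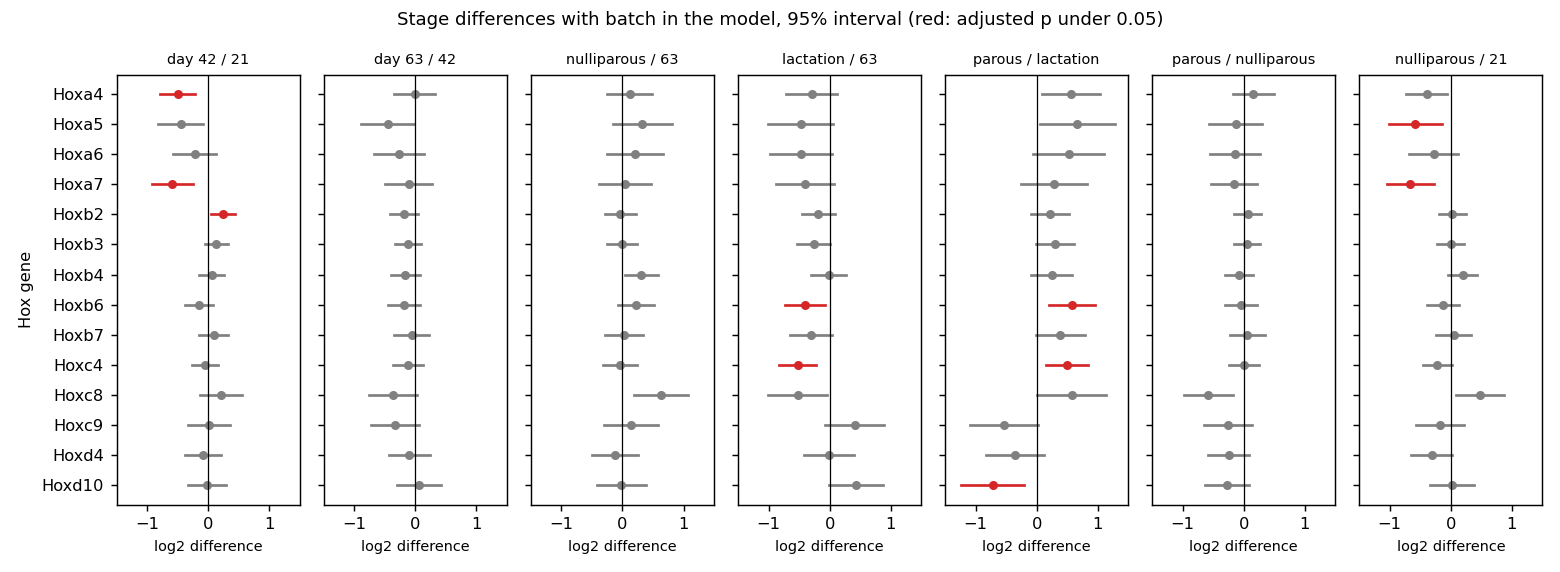
Log2 differences between stages of the 14 Hox genes tested, from the model with batch, in 7 panels of 1 comparison each, with 95% intervals and red for adjusted p under 0.05. Red points number 3, 0, 0, 2, 3, 0 and 2 from left to right, and Hoxc9 and Hoxd10 lie opposite to most genes in both comparisons with lactation. Hoxd4 does so in parous against lactation only.

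Batch also moved Hox values. Against batch 1, with stage in the model, 10 of 14 Hox genes were called in batch 3, 8 higher and 2 lower, against 77.4% of all genes, 33% higher and 44.4% lower. Hoxb4 and Hoxb7 entered the 14 only through batch 3 arrays above the median, so the filter favours their being higher there and their values are a description. Of the other 12 genes 8 were called, 6 higher and 2 lower. The largest were Hoxc8 at 1.07 ± 0.20 (SE, adjusted p = 1.41e-05), Hoxb7 at 1.07 ± 0.14, Hoxd4 at -0.81 ± 0.17 (7.16e-05), Hoxc9 at 0.66 ± 0.19 (0.00291), Hoxd10 at 0.56 ± 0.18 (0.00602) and Hoxb3 at -0.54 ± 0.11 (4.58e-05). The neighbours Hoxb2 (0.45 ± 0.11) and Hoxb3 moved in opposite ways, while the neighbours Hoxc8 and Hoxc9 were both higher. The endothelial list mean was 8.89 to 9.17 in the 4 batch 3 arrays and at least 9.72 in all others, and the part of makeup, kit or hybridization in the batch term was not tested. Batch 2 differed from batch 1 for 5 of 14 Hox genes, against 56.6% of all genes, 21.4% higher and 35.2% lower: Hoxa5 (-0.57 ± 0.15), Hoxa7 (-0.47 ± 0.13) and Hoxb3 (-0.34 ± 0.08) were lower and Hoxb7 (0.31 ± 0.10) and Hoxb6 (0.24 ± 0.09) higher.

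Hox genes varied together within stages. Deviations from the stage and batch fit over 33 arrays, which leave 25 residual degrees of freedom, correlated with a median r of 0.49 over the 20 pairs of tested genes in the same cluster (0.08 to 0.85). Over the 71 pairs from different clusters the median r was 0.38 (-0.17 to 0.73), and over all pairs of genes tested it was 0.01. The highest were Hoxa5 with Hoxa6 at 0.85 and Hoxc8 with Hoxc9 at 0.78, both neighbours in their cluster. Next came Hoxc4 with Hoxc9 at 0.76, not neighbours, and Hoxa7 with Hoxc9 at 0.73, of different clusters. Other neighbours had lower r, such as Hoxa6 with Hoxa7 at 0.43 and Hoxb2 with Hoxb3 at 0.485. These values are descriptions, since all genes share the same arrays and tissue pieces. The same deviations followed marker lists too: with the endothelial mean r was 0.80 for Hoxb6, 0.78 for Hoxa7 and 0.75 for Hoxd4, and with the adipocyte mean 0.58 for Hoxc9, 0.57 for Hoxa5 and 0.55 for Hoxa7. With the B cell mean r was negative for every tested Hox gene, down to -0.67 for Hoxb3 and -0.60 for Hoxb2. With the T cell mean these genes had r of -0.64 and -0.60.

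**Figure D5:**
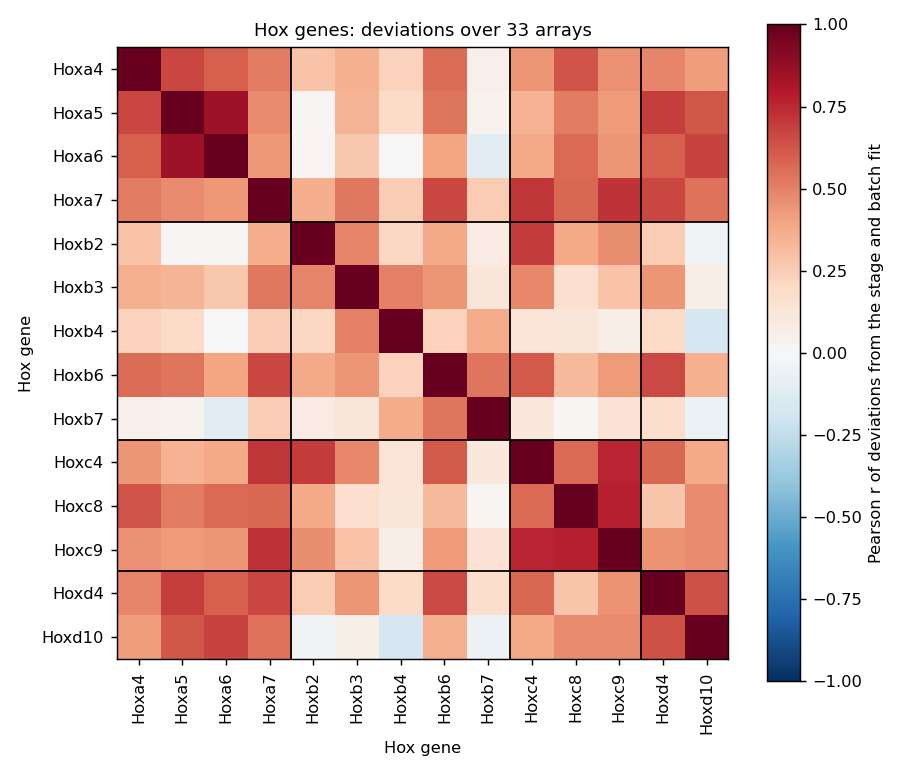
Pearson r between the 14 Hox genes tested, computed on deviations from the stage and batch fit over 33 arrays, with colour from -1 (blue) to 1 (red) and black lines between clusters. The darkest cells off the diagonal join Hoxa5 with Hoxa6 (0.85) and Hoxc8 with Hoxc9 (0.78), and Hoxb7 is close to 0 with most genes of other clusters.

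The other genes of the pathway are read against the same shares over all genes, 65.9% called over the stages, 16.9% lower and 23.8% higher in lactation against day 63, and 12.1% higher in parous glands against lactation. Of 7 TALE cofactors tested, 4 were called over the 6 stages, a share below that of all genes: Pknox2, Meis2, Pbx3 and Meis1. Against day 63, lactation had 4 of 7 lower (these same genes) and 1 higher (Pknox1). Meis2 went from 8.27 ± 0.42 (SD, n = 5) at day 63 to 6.76 ± 0.32 (n = 3) in lactation and 8.06 ± 0.33 (n = 5) in parous glands. Its log2 difference was -1.26 ± 0.15 (SE, adjusted p = 1.75e-07) in lactation and 1.09 ± 0.17 (2.19e-05) in parous glands against lactation. Pknox2 was highest at day 21 (7.85 ± 0.15, n = 10) and already lower at day 42 (7.25 ± 0.18, n = 5), by 0.60 on the log2 scale (adjusted p = 2.56e-06).

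Of 11 tested factors that pattern limbs and trunk, 10 were called over the stages, and 7 fell and none rose in lactation against day 63. All 10 fibroblast markers were lower in that comparison too, with a median difference of -1.76, and their part in these values was not tested. Prrx1, a homeobox gene of limb and trunk mesenchyme, had means of 11.04 ± 0.29 at day 21 (SD, n = 10), 10.65 ± 0.33 at day 63 (n = 5), 8.87 ± 0.27 in lactation (n = 3) and 10.53 ± 0.31 in parous glands (n = 5). Its difference in lactation was -1.51 ± 0.13 (adjusted p = 5.28e-10). Twist2, a mesenchymal factor of the skin, differed by -1.70 ± 0.27 (1.34e-05), Tbx15 by -1.19 ± 0.17 (4.42e-06) and Shox2 by -0.84 ± 0.22 (0.00326). In parous glands 5 of 11 were called higher than in lactation, as were 9 of 10 fibroblast markers.

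Of the genes that set or keep Hox expression, 6 of 8 retinoic acid genes were called over the stages, close to the share of all genes. In lactation against day 63, 3 of 8 were called lower and 1 higher. Crabp1, a carrier of retinoic acid, had means of 10.65 ± 1.30 (SD, n = 5) at day 63 and 7.19 ± 0.24 (n = 3) in lactation. With batch in the model the difference was -1.95 ± 0.41 (adjusted p = 0.000387), smaller in size than that between the means. Crabp2, its relative, rose from 7.42 ± 0.47 at day 21 (n = 10) to 8.30 ± 0.28 at day 42 (n = 5), by 0.87 ± 0.20 (0.00116). Its mean was 8.51 ± 0.36 at day 63 (n = 5) and 9.41 ± 0.40 in lactation (n = 3), opposite in direction to Crabp1. Among Polycomb and Trithorax genes 9 of 15 were called over the stages, a share below that of all genes, led by Cbx7, Bmi1, Pcgf2 and Kdm6b. In lactation 2 of 15 were higher and 2 lower than at day 63, with Bmi1 higher by 0.39 ± 0.14 (0.0213). Gdf11 and Tgfbr1, a signal and a receptor of trunk patterning, were both called over the stages. Against day 63, Gdf11 was lower in lactation, at -0.39 ± 0.14 (adjusted p = 0.0316), and Tgfbr1 was called higher. Tgfbr1 had means of 9.60 ± 0.15 (SD, n = 5) at day 63 and 10.40 ± 0.41 (n = 3) in lactation.

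Small RNA genes of the miR-196 family lie within the Hox clusters, and their mature products are known to target Hox messages. The 3 mature sequences from RefSeq are shown because they share the seed, bases 2 to 8 from the 5′ end, given in capitals.

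rno-miR-196a-5p: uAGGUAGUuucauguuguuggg

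rno-miR-196b-5p: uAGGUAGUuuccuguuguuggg

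rno-miR-196c-5p: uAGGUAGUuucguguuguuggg

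Counted from the 5′ end of miR-196a, miR-196b differs by A12C and miR-196c by A12G, outside the seed. On GRCr8 they lie at chr7:135988900-135988921 (plus strand), chr4:82661149-82661170 (minus strand) and chr10:81727561-81727582 (plus strand), each on the chromosome of a Hox cluster. The probe set of the Mir196c gene passed the filter, and those of Mir196a (mean 4.83) and Mir196b (5.66) did not. Mir196c had means of 7.88 ± 0.20 (SD, n = 5) at day 63, 7.34 ± 0.17 (n = 3) in lactation and 7.58 ± 0.22 (n = 5) in parous glands. The log2 difference was -0.72 ± 0.14 in lactation (adjusted p = 0.000225) and 0.64 ± 0.17 in parous glands against lactation (0.00416). Whether the probe set measures the mature RNA or its precursor is not stated in the labels.

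The labelled tissue was checked against cell type markers. The luminal list was complete (10 of 10 genes), and the milk protein list had means of 13.56 to 13.75 in lactation against 7.68 to 8.87 at day 21. Of the basal list Krt5, Trp63 and Acta2, and of the endothelial list Pecam1 and Kdr, had no single-symbol probe set.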

How the data were processed

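Gene expression was measured on 33 Affymetrix whole-transcript arrays, 1 per sample. The deposited table holds log2 values that the authors made with RMA in Affymetrix Expression Console, per the submitters' processing notes, whose software release those notes do not name. It has 36685 probe sets, of which 18511 carry 1 gene symbol in the platform annotation, 575 several and 17599 none. The 18511 probe sets stand for 18166 symbols, and for a symbol with several the probe set of highest mean was kept. No value was missing.

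Groups, batches and kits were taken from the labels. Values were fitted in limma 3.58.1 (R 4.3.3) with stage and batch (25 residual degrees of freedom), and tested two-sided with moderated variances that follow intensity (eBayes with trend). P-values were adjusted by Benjamini-Hochberg over 10986 genes above 7.645 in at least 3 arrays, with a threshold of 0.05, and the scripts were tested on simulated data. Where nothing says that samples of a group were separately processed, p-values measure only the spread between these samples. Alternatives covered batch, filter, normalization, probe set choice, marker covariates and leaving out arrays.

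Hox genes were named in full where they were among the 10 of smallest F test p, the 4 highest or 4 lowest means or, up to 6 a comparison, those called with the largest difference. Genes of the other lists were named up to 4 a list by smallest F test p, and Pknox1, Hoxb5, Hoxb8, Hoxb9 and Hoxc10 were named after their values were seen. The members and lists were chosen with earlier results of these data known. RefSeq promoters and miRNAs were matched by symbol.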

Additional observations from a re-analysis of the deposited data

Results flagged for a closer look

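In 70 sets of values (14 Hox genes in the 5 stages of 4 to 10 arrays), 3 had 1 array far from the others by Dixon's test at its 95% critical value, which chance gives in about 1 of 20. Hoxa6 in parous glands had its lowest array, array 4 of batch 3, at 8.22, while the others were between 8.48 and 8.58. Hoxb6 in pubertal glands had its highest array, array 5 of batch 2, at 7.57, while the others were between 7.27 and 7.31. This pubertal array is in the comparison with lactation, where the call of Hoxb6 was lost without it (adjusted p = 0.0902). Hoxc4 before puberty had its highest array, array 4 of batch 2, at 8.12, while the others were between 7.31 and 7.72. The same array was the only one above the median for Hoxa9, at 8.04.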

How the results depend on the processing

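Over the 6 stages 7 Hox genes were called, and 1 with the filter at the 75th percentile, 3 in batch 1 alone, 2 with the adipocyte and 1 with the luminal covariate. For day 42 against day 21 (3 called) the count was 1 with no batch term and 0 with the stricter filter, in batch 2 alone and with the luminal covariate. For nulliparous against day 63 (0 called) it was 1 with no batch term and 1 with the fibroblast covariate. For lactation against day 63 (2 called) it was 1 with no batch term, with arrays centred, with quantile normalization again, with the muscle covariate and at adjusted p under 0.01. It was 5 with no filter, counted over all 31 Hox genes, of which 3 lie outside the filter and 2 within it. It was 0 with the stricter filter, in batch 2 alone, with only the stages compared and with the fibroblast covariate. For parous against lactation (3 called) it was 0 with the stricter filter and at adjusted p under 0.01, and 1 with quantile normalization or the luminal covariate. For nulliparous against day 21 (2 called) it was 0 with the stricter filter or the luminal covariate, 4 in batch 1 alone and 1 at adjusted p under 0.01. No gene had a mean above the 75th percentile. Of the Hox genes only Hoxc8 passed the stricter filter, through batch 3 arrays at 9.45, 9.73 and 9.30. The counts of 0 or 1 under that filter therefore say nothing about the other Hox genes. Single batches hold fewer arrays, and the cause of the other changes was not tested.

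With the adipocyte covariate 3 differences changed sign and none of them was called: Hoxa7 to 0.0315 at day 42 and to 0.0319 in nulliparous glands against day 21, and Hoxa5 to 0.24 there. With 1 array left out the counts ran from 7 to 9 over the stages, 2 to 4 for day 42 against 21, 0 to 0 for day 63 against 42, 0 to 1 for nulliparous against 63, 1 to 5 for lactation against 63, 1 to 6 for parous against lactation, 0 to 0 for parous against nulliparous and 1 to 3 for nulliparous against 21. A fit with only the stages compared was not run for parous against lactation, which share no batch. No paired analysis was possible because the replicate numbers do not pair samples between groups.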
